A study of Mus musculus with 8 samples.

Results

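The 10 circadian clock genes described here are Arntl, Npas2 and Clock, termed the antiphase arm, and Nr1d1, Nr1d2, Dbp, Tef, Per1, Per2 and Per3, termed the Nr1d1/Dbp/Per arm. They are 10 of the 22756 genes with coding sequence (CDS) counts, and were chosen by symbol because the arms had responded to cigarette smoke (CS) in opposite directions in these same libraries. Their CS values are therefore given as a description with no test, and only genotype and sex, which played no part in the choice, were tested. The RNA came from cells of the distal lung enriched for epithelium by depletion of CD45+ cells after lavage. The α7G mice carry a tauGFP reporter downstream of Chrna7, the gene of the nicotinic α7 receptor, and the α7E260A:G mice carry the same reporter with the E260A substitution, which restricts calcium signaling through the receptor. Both lines thus carry the reporter, and were adult mice largely of the C57BL/6 background. The CS groups inhaled side-stream smoke for 4 months (5 days per week), and the controls breathed room air. There was 1 male and 1 female library in each of the 4 groups (α7G control, α7G CS, α7E260A:G control and α7E260A:G CS), or 8 libraries, and a matched pair is the CS and the control library of the same genotype and sex. According to the methods of the study, CS sessions began in the morning, lasted for a few hours, and mice were used a day after the last session, which places the CS mice around the hours of the sessions. The number of mice in a library, the exact hour at which each library's tissue was taken and that of the controls are not given in the sources used here, so a shift of the clock in time and a change of its mean level cannot be told apart.

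The molecular clock is a feedback loop present in most cells, the airway and alveolar epithelium included. The proteins of Arntl (BMAL1) and Clock, or its homolog Npas2, bind DNA as a pair at E-boxes and drive the Per and Cry genes, Nr1d1 and Nr1d2 (REV-ERBα and REV-ERBβ), and Dbp and Tef. The PER and CRY proteins repress that pair, while the REV-ERB proteins repress Arntl and Npas2 through ROR elements, so that over the day transcripts of the antiphase arm peak when those of Nr1d1 and Dbp are low. In the lung the clock is known for its part in airway inflammation and in the response to glucocorticoids.

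Promoters of the members were searched for the elements bound by clock proteins. RefSeq windows of 300 bases, from 250 before to 50 after an annotated start (build GRCm38.p6), were found for 9 of the 10 members, 14 windows in all, and not for Per2. Both strands were searched for the E-box CACGTG, the D-box bound by the DBP and TEF proteins (TTATGTAA or TTACGTAA) and the core of the ROR/REV-ERB element (TAGGTCA or TGGGTCA). Of the 9 members, 4 held a match to the letters of such an element, and the windows with a match are shown. Capitals mark the match, and the first base is 5′ on the strand of the gene. The Arntl window at chr7:113207261-113207560 (plus strand) holds TAGGTCA from position 31 after the start, and the Per3 window at chr4:151044616-151044915 (minus strand) holds TTATGTAA from positions -205 and -158. The Per1 window at chr11:69098699-69098998 (plus strand) holds CACGTG from position -166, and both Tef windows, at chr15:81802423-81802722 and chr15:81811164-81811463 (plus strand), hold it from positions -127 and -138.
Arntl: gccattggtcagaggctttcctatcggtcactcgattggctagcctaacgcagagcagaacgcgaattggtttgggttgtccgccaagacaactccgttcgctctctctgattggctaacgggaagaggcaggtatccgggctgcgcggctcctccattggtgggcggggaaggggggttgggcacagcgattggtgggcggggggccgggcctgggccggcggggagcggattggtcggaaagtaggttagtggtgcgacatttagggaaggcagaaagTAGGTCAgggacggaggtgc
Per3: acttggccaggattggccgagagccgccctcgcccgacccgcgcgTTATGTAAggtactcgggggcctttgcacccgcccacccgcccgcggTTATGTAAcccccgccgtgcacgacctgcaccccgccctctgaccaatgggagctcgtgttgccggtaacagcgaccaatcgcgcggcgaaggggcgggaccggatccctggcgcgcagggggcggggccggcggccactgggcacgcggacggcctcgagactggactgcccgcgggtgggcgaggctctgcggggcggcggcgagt
Per1: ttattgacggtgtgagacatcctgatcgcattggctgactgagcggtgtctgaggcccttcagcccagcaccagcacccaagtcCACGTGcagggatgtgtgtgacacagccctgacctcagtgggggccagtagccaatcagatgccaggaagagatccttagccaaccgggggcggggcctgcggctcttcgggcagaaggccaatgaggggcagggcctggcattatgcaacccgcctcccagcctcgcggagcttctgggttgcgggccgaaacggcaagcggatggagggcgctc
Tef, first start: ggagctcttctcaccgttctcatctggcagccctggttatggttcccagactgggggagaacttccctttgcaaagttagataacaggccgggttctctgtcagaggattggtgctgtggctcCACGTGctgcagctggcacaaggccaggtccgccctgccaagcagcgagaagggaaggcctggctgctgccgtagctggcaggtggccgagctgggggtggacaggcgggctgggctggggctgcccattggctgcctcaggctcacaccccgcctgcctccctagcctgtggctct
Tef, second start: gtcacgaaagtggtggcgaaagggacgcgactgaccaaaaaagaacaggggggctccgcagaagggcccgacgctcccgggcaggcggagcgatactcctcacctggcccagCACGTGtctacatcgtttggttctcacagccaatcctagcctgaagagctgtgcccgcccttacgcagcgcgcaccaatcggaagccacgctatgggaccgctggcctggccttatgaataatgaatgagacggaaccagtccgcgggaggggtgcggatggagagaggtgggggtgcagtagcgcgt
Among all 32851 windows of this length, 7.15% held the E-box, 1.06% a D-box and 6.45% a ROR/REV-ERB core. Counted by gene, as the 4 of 9 members were, 15.9% of 27025 genes held a match of any of the 3 in a window, 8.09% an E-box (2 members), 1.23% a D-box (1 member) and 7.35% a ROR/REV-ERB core (1 member). A match is a run of letters and not evidence of binding, and the elements of the other members may lie outside these windows.

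The members differed in abundance, and each was detected in every library. Per length of CDS, Tef had the highest mean level over the 8 libraries (31.5 RPM per kilobase, range 11.5 to 48.3), followed by Nr1d1 (26.5, range 6.09 to 45.7), Dbp (21.5, range 7.87 to 48.6), Per1 (20.7, range 8.13 to 34.1), Nr1d2 (19.0, range 8.26 to 30.4) and Arntl (15.1, range 9.19 to 26.5). Per2 (9.66), Clock (9.29), Per3 (3.55) and Npas2 (1.97) came last on the same scale. The ranges of neighbours in this order overlapped throughout. RPM below are CDS counts scaled to a library total of 1000000, and the smallest count behind a value was 17, for Npas2 in the female α7E260A:G CS library (1.88 RPM, with an exact 95% Poisson interval of 1.10 to 3.01 that covers counting error only).

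**Figure D1:**
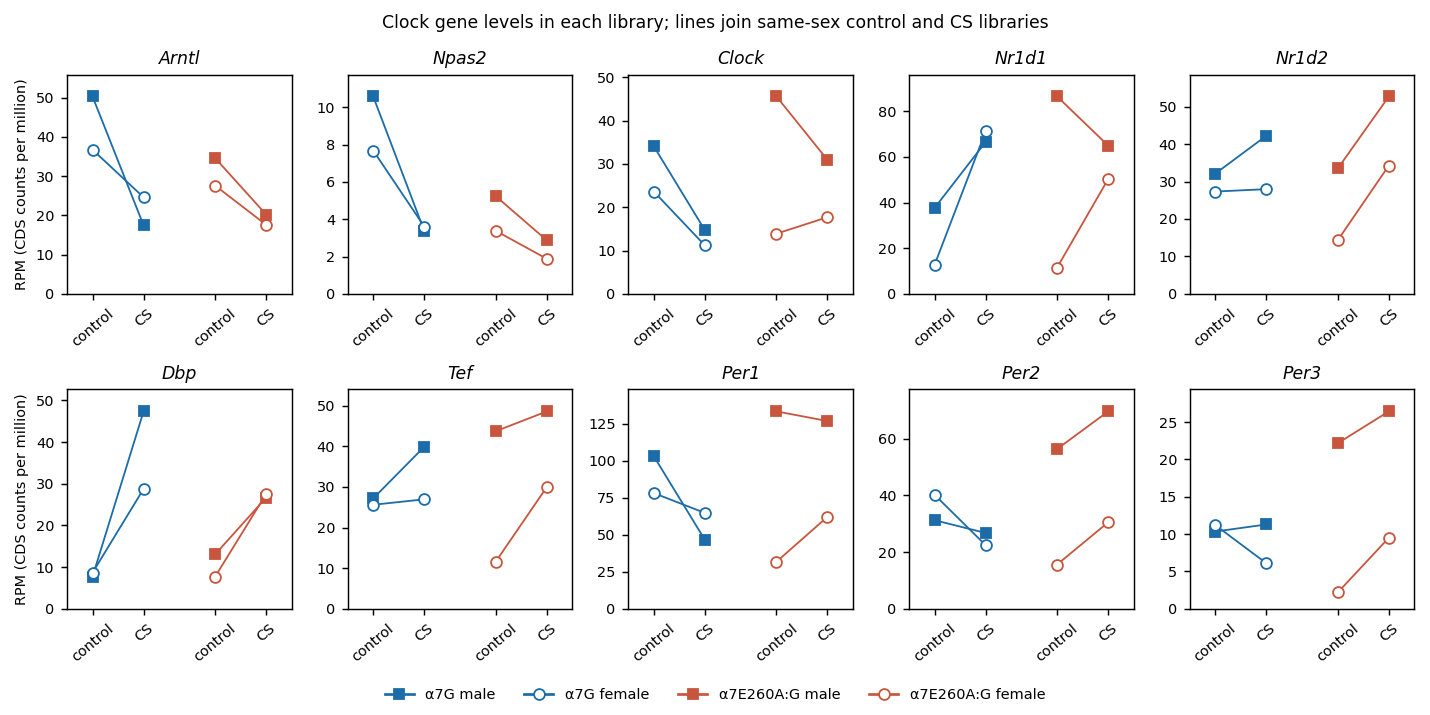
RPM (y axis, from 0) of the 10 members in each library, with control and CS libraries of the same genotype and sex joined by a line. Squares are male and circles female libraries, blue is α7G and red α7E260A:G. All 4 lines go down for Arntl and Npas2 and up for Nr1d2, Dbp and Tef, whereas the Per genes go both ways.

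In the antiphase arm, Arntl and Npas2 were lower after CS in all 4 matched pairs and Clock in 3 of 4. Arntl encodes BMAL1, the partner without which the loop does not run. Arntl lies on chromosome 7 (120350979 to 120457636, plus strand, mm9). In control libraries Arntl had 50.3 RPM in α7G male, 36.7 in α7G female, 34.6 in α7E260A:G male and 27.6 in α7E260A:G female, and after CS it had 17.5, 24.6, 20.2 and 17.6 RPM in the same order. Every CS library was below every control library. The ratio of CS to control was 0.347 and 0.670 in the α7G male and female pairs and 0.584 and 0.637 in those of α7E260A:G, a mean log2 ratio of -0.88 ± 0.44 (SD, n = 4 pairs).

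Npas2, whose protein can take the place of CLOCK, was the least abundant member (chromosome 1, 39250576 to 39420079, plus strand, mm9). Its controls had 10.6, 7.69, 5.24 and 3.38 RPM (α7G male and female, then α7E260A:G male and female), and its CS libraries 3.38, 3.61, 2.87 and 1.88 RPM. CS libraries were at 0.319, 0.470, 0.547 and 0.556 of their controls, in the same order, or -1.11 ± 0.37 on the log2 scale (SD, n = 4 pairs). Each pair went down, but the ranges of the CS and control libraries overlapped because the female α7E260A:G control was as low as the α7G CS libraries.

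Clock encodes the DNA-binding partner of BMAL1 and cycles weakly in most tissues. Its level was 34.0 and 23.6 RPM in α7G controls and 14.7 and 11.2 RPM after CS (male, female). In α7E260A:G the male pair went from 45.6 to 30.9 RPM and the female pair, the single exception in this arm, from 13.9 to 17.7 RPM. In α7G the average of male and female was thus 0.448 of control, and in α7E260A:G 0.818.

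Of the Nr1d1/Dbp/Per arm, Dbp, Tef and Nr1d2 had a higher RPM after CS in all 4 matched pairs and Nr1d1 in 3 of 4. Dbp encodes a PAR bZIP activator that binds D-boxes and is among the transcripts with the widest daily swing in many tissues. It had 7.70, 8.65, 13.0 and 7.68 RPM in controls (α7G male and female, α7E260A:G male and female) and 47.4, 28.8, 26.7 and 27.5 RPM after CS. The CS and control libraries did not overlap, and the ratios were 6.15, 3.33, 2.05 and 3.59, or 1.81 ± 0.65 on the log2 scale (SD, n = 4 pairs), the highest mean among the members. By the ratio of male and female averages, Dbp was 4.66 times control in α7G and 2.62 times in α7E260A:G. Dbp lies on chromosome 7 (52960458 to 52965525, plus strand, mm9). Of its CDS, 213 of 975 bases lie over exons of Sphk2 on the other strand, and the strand setting of the counting is not given in the sources used here.

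Nr1d1, the repressor of Arntl, had the most unlike ratios between pairs (SD of the log2 ratio 1.32, chromosome 11, 98629246 to 98636647, minus strand, mm9). Its controls had 37.6 RPM in α7G male, 12.7 in α7G female, 86.5 in α7E260A:G male and 11.5 in α7E260A:G female. After CS the 4 libraries lay close together, at 66.6, 71.2, 65.0 and 50.3 RPM. Both female pairs were thus far above control, with ratios of 5.60 and 4.37, the α7G male pair had a ratio of 1.77, and the α7E260A:G male pair went the other way with 0.751. The spread lay in the controls, which ran from 11.5 to 86.5 RPM against 50.3 to 71.2 RPM after CS. For Nr1d1, 197 of 1892 CDS bases are also CDS of Thra on the opposite strand, so that part of its count is uncertain.

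Nr1d2, the second REV-ERB repressor, was higher in every pair by a small margin in α7G and a larger one in α7E260A:G. It went from 32.1 to 42.2 RPM in the α7G male pair, from 27.3 to 28.0 in the α7G female pair, from 33.5 to 52.7 in the α7E260A:G male pair and from 14.3 to 34.3 in the α7E260A:G female pair. The average was 1.18 times control in α7G and 1.82 times in α7E260A:G. Tef, a PAR bZIP factor of the same family as Dbp, was also higher in every pair. It had 27.2, 25.6, 43.7 and 11.6 RPM in controls and 39.9, 27.0, 48.6 and 30.0 RPM after CS (α7G male and female, α7E260A:G male and female). The average of Tef was 1.27 times control in α7G and 1.42 times in α7E260A:G. In α7E260A:G the female pair had a ratio of 2.58 and the male pair 1.11. In the α7G female pair the raw counts were 256 and 248 for Nr1d2 and 240 and 239 for Tef (control, CS). Their higher RPM after CS in that pair thus came from the scaling to library totals.

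The 3 Per genes, which encode the repressors of the loop, did not follow Dbp in every pair. Per1 was lower after CS in 3 of 4 pairs, from 102.8 to 46.4 RPM and from 78.0 to 64.6 RPM in α7G male and female and from 133.2 to 126.7 RPM in the α7E260A:G male, and was higher in the α7E260A:G female (31.7 to 62.1 RPM). Per2 was lower in both α7G pairs (31.3 to 26.8 RPM in male, 40.2 to 22.4 RPM in female) and higher in both α7E260A:G pairs (56.4 to 69.7 RPM in male, 15.6 to 30.5 RPM in female). Per3 was higher in 3 of 4 pairs and lower in the α7G female pair. It was at 10.3 and 11.2 RPM in α7G controls and 11.3 and 6.09 RPM after CS (male, female). In α7E260A:G it went from 22.2 to 26.4 RPM in male and from 2.19 to 9.51 RPM in female. Over the 4 pairs the mean log2 ratio was -0.13 ± 0.87 for Per1, 0.05 ± 0.77 for Per2 and 0.40 ± 1.25 for Per3 (SD, n = 4 pairs). Each was smaller than its SD, as were the means of Clock, Nr1d1 and Tef.

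In all, 3 members were higher and 2 were lower with CS in 4 of 4 pairs. Of the 14140 genes that pass the low-count filter filterByExpr, as all 10 members do, 11.2% were higher and 11.5% lower in every pair. Of the same genes, 1.84% had every CS library above every control library, as Dbp had, and 0.948% had every CS library below, as Arntl had. Since the CS response chose the members, these shares are set beside the counts and nothing is read from them.

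The CDS of the members run from 975 bases (Dbp) to 3902 bases (Per1), and the ratio of CS to control depended on CDS length. Over the transcripts with a mean count of at least 200, the log2 ratio changed by -0.47 per doubling of length in the α7G male pair, -0.26 in the α7G female pair, -0.22 in the α7E260A:G male pair and 0.04 in the α7E260A:G female pair. With the length dependence of each library removed, Per1 in the α7G male pair went from -1.15 to -0.34 (log2 ratio) and Per2 in that pair from -0.22 to 0.56. The mean over 4 pairs became 0.23 ± 0.48 for Per1, 0.40 ± 0.54 for Per2 and 0.67 ± 0.90 for Per3. For the short Dbp it was 1.62 ± 0.62, and for Arntl -0.79 ± 0.34 and Npas2 -0.83 ± 0.18 (SD, n = 4 pairs). Of 40 member ratios, 4 changed sign, 3 of them in the Per genes and the other in Tef, so that 2 members were higher (background 9.64%) and 2 lower (background 11.7%) in every pair. Per1 in the α7G female pair and Per2 in the α7G male pair were below control on the RPM scale and above it after the correction. Each of the 3 Per genes was then higher in 3 of 4 pairs.

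**Figure D2:**
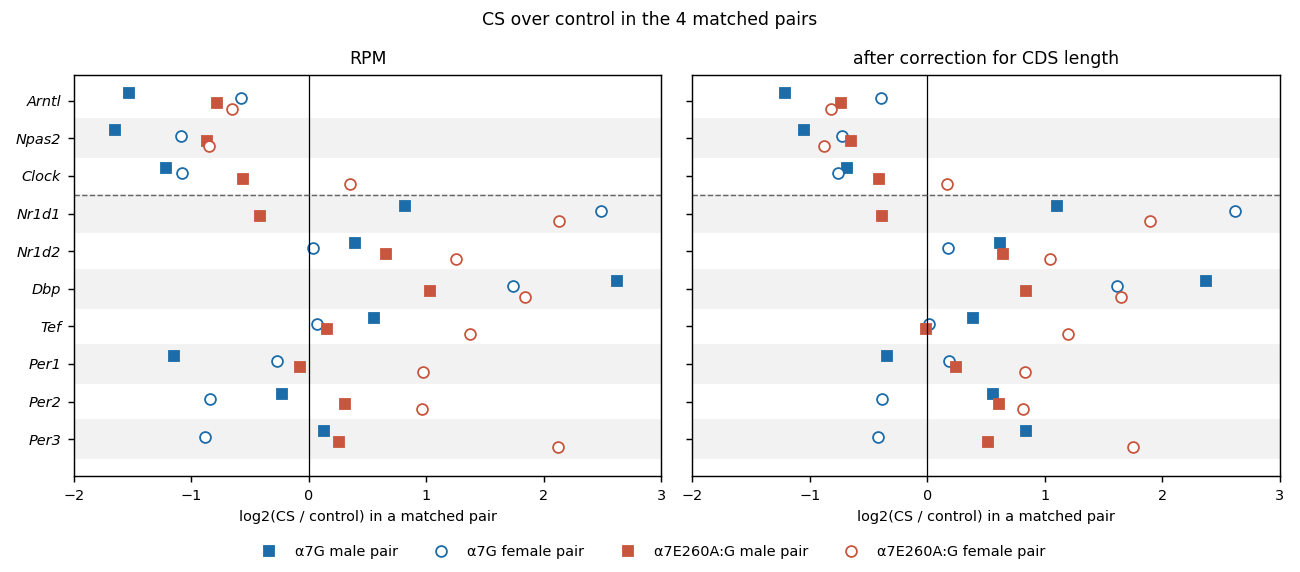
log2 of CS over control (x axis) for each member in the 4 matched pairs, from RPM on the left and with the length dependence of each library removed on the right. The dashed line parts the antiphase arm (above) from the Nr1d1/Dbp/Per arm. On the right, Arntl and Npas2 stay below 0 and Dbp and Nr1d2 above 0 in all 4 pairs, and the Per points move to higher values in α7G.

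The mean log2 RPM of the 7 genes of the Nr1d1/Dbp/Per arm minus that of the 3 antiphase genes puts each library on 1 scale. It was -0.01 in the α7G male control, 0.24 in the α7G female control and -0.03 in the α7E260A:G female control, and 1.09 in the α7E260A:G male control. In the CS libraries it was 1.91 and 1.49 in α7G and 2.10 and 1.88 in α7E260A:G (male, female). The α7E260A:G male control was the control nearest to the CS libraries. The change with CS was 1.91, 1.25, 1.01 and 1.90 in the α7G male and female and α7E260A:G male and female pairs, a mean of 1.52 ± 0.46, and 1.43 ± 0.43 after length correction (SD, n = 4 pairs).

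The female α7E260A:G pair divided that change between the arms in another way than the other 3 pairs. On the RPM scale the antiphase arm changed by -1.46, -0.92 and -0.74 in the α7G male, α7G female and α7E260A:G male pairs, against 0.45, 0.33 and 0.27 in the Nr1d1/Dbp/Per arm. In the α7E260A:G female pair the values were -0.38 and 1.52. After length correction the antiphase arm changed by -0.98, -0.62, -0.60 and -0.51 and the other arm by 0.79, 0.54, 0.35 and 1.31, in the same order of pairs, so the split was nearer to even in the first 3. These parts were not tested against each other.

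**Figure D3:**
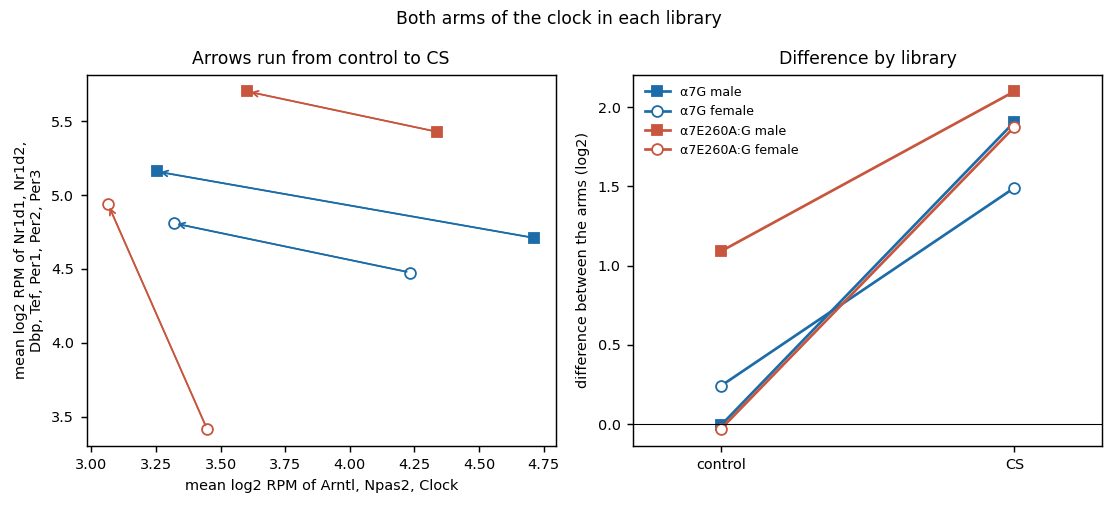
On the left, the mean log2 RPM of the Nr1d1/Dbp/Per arm (y axis) against that of the antiphase arm (x axis), with an arrow from the control to the CS library of each matched pair. On the right, the difference between the arms (log2) in control and CS libraries: every CS library is at 1.49 or above and every control at 1.09 or below.

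The genotypes were compared over both exposures to see whether restricting α7 calcium signaling goes with other clock gene levels, by edgeR's quasi-likelihood test across all transcripts with Benjamini-Hochberg adjustment. With the abundance filter of the study (a mean count of at least 200), 7 members were tested and 0 were called at 0.05, while 0.0834% of all 7196 transcripts were. Their adjusted p ran from 0.667 to 0.992 in edgeR. DESeq2 also called 0 of the 7, against 5.93% of all transcripts. In edgeR 0 of the 7 had an unadjusted p under 0.05, against 11.9% of the transcripts tested. The filter leaves out Npas2, Dbp and Per3. With filterByExpr all 10 members were tested, again with 0 called (background 0.0919%). Of the 10, 1, Npas2, had an unadjusted p under 0.05, against 11.2% of all genes tested.

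Npas2 was the member that differed most evenly between the genotypes. It was lower in α7E260A:G in 4 of 4 pairs of the same sex and exposure, as were 15.3% of all genes, by log2 differences of -1.02 and -1.19 in the controls and -0.24 and -0.94 after CS (male, female). Its mean was 6.31 ± 3.47 RPM in α7G and 3.34 ± 1.41 RPM in α7E260A:G (SD, n = 4 libraries), with an edgeR log2 difference of -0.76 ± 0.29 (SE) and an adjusted p of 0.363. The exact permutation test of its 4 against 4 libraries gave p = 0.171 (two-sided, the smallest possible being 0.0286). It shuffled the libraries without regard to sex or exposure. The lower Npas2 after CS therefore entered its spread, and it is not a test within the pairs. Npas2 thus did not pass the threshold. No member was higher in α7E260A:G in 4 of 4 pairs (0 of 10, against 6.76% of all genes), and for 0 of 10 did the libraries of the genotypes not overlap (7.79% of all genes).

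Clock, Nr1d2, Tef, Per2 and Per3 shared another pattern. Each was higher in α7E260A:G in 3 of 4 pairs and lower in the female controls alone. The share of all genes with this same split was not computed, so it is not read as particular to these members. The log2 differences of Per2 were 0.85 in male controls, 1.38 in male CS and 0.44 in female CS, against -1.37 in female controls, and those of Clock were 0.42, 1.08 and 0.66 against -0.76. The edgeR log2 difference was 0.51 ± 0.36 for Per2 and 0.49 ± 0.33 for Clock (SE), with adjusted p of 0.703 and 0.667.

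In the female α7E260A:G control library all 7 members of the Nr1d1/Dbp/Per arm had their lowest RPM. Low values in it were not particular to clock genes. Cdh1 (74.7 RPM) and Vwf (71.3 RPM) were also lowest there, while Fabp4 was highest (239 RPM). The share of all genes that were lowest there was not computed. In the male α7E260A:G control Clock, Nr1d1 and Per1 had their highest RPM. Per3 was at 2.19 RPM in the female and 22.2 RPM in the male library of that group. The counts of these libraries also depended on CDS length in opposite directions, with slopes of -0.24 and 0.41 (log2 per doubling), and after length correction 5 of the 7 remained lowest in the female control. Without that library edgeR called 275 transcripts between the genotypes instead of 6 (121 without the male one), and the members' log2 differences were 0.74 ± 0.23 for Clock, 0.79 ± 0.26 for Per2, 0.73 ± 0.32 for Nr1d1 and 0.61 ± 0.24 for Per1 (SE), with adjusted p of 0.109, 0.124, 0.208 and 0.177, so 0 members were called there too.

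Sex was compared within the 4 groups, and 0 of 7 members were called in edgeR (0.0278% of transcripts), or 0 of 10 with filterByExpr (0.0212%). Clock, Nr1d2 and Tef were lower in the female library of all 4 groups, as were 20.3% of all genes, with log2 differences (female minus male) of -0.69 ± 0.21, -0.49 ± 0.17 and -0.63 ± 0.26 (SE) and an adjusted p of 0.227 for each in edgeR. These 3 had an unadjusted p under 0.05, as did 21.9% of the transcripts tested. DESeq2 called 0 of the 7 for sex, against 42 of all 7196 transcripts. Nr1d1 had a log2 difference of -0.97 ± 0.46 (adjusted p = 0.238), and it was in the controls that the sexes lay apart, with 37.6 and 86.5 RPM in male and 12.7 and 11.5 RPM in female libraries.

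**Figure D4:**
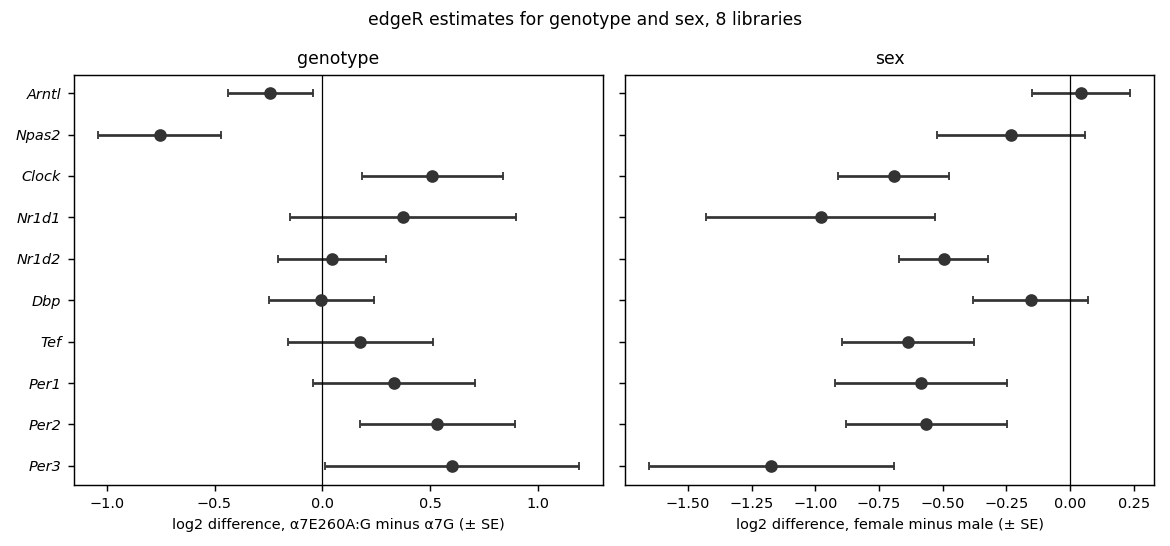
edgeR log2 differences (x axis, ± SE) of the 10 members between the genotypes (left) and the sexes (right) in the fit of 14140 genes. For genotype Npas2 lies lowest at -0.76 and Per3 highest at 0.60, and for sex all members but Arntl lie below 0. None passed an adjusted p of 0.05.

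Other genes of the loop were taken from a list of 17, of which 16 pass filterByExpr and 9 the mean count of 200. With CS, 0 of the 9 were called in edgeR over both genotypes (background 0.0%), and 2 had an unadjusted p under 0.05 (background 7.59%). DESeq2 called these 2, Nfil3 and Bhlhe41, among 0.542% of transcripts. Nfil3, which encodes E4BP4, a repressor that binds the same D-boxes as the DBP protein and is itself repressed by REV-ERB, was lower in all 4 pairs. It went from 56.9 to 32.7, 60.1 to 43.7, 74.2 to 42.4 and 56.2 to 36.3 RPM (α7G male and female, α7E260A:G male and female), a log2 difference of -0.65 ± 0.16 (SE) with an adjusted p of 0.631 in edgeR and 0.0452 in DESeq2. Its values lay on the side of Arntl in each pair. Earlier results of these data were known when the list was drawn up, so this is a description only. Cry1, the repressor that partners the PER proteins, was also lower in 4 of 4 pairs, with log2 ratios of -0.34, -0.94, -0.16 and -0.10, as was Rora, an activator at ROR elements. Bhlhe40 and Bhlhe41 were higher in 4 of 4. Some of these changes were slight. The ratio of Bhlhe40 was 1.004 and 1.051 in the α7G male and female pairs. That of Bhlhe41 was 1.014 in the α7G female pair, and that of Rora 0.979 in the α7E260A:G female pair.

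Bhlhe41 (DEC2), an E-box repressor, had 21.4 and 23.6 RPM in α7G controls and 23.7 and 23.9 RPM after CS, and 26.3 and 20.0 RPM in α7E260A:G controls and 78.0 and 45.7 RPM after CS (male, female). Its CS response differed between genotypes by 1.12 ± 0.36 on the log2 scale (SE), with an adjusted p of 0.997 for that difference in edgeR. The median log2 ratio of the list was -0.22, -0.08, -0.10 and 0.05 in the 4 pairs, and that of all 14140 genes was -0.15, -0.10, -0.00 and 0.15. Of the 16, 2 were higher and 3 lower in every pair.

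**Figure D5:**
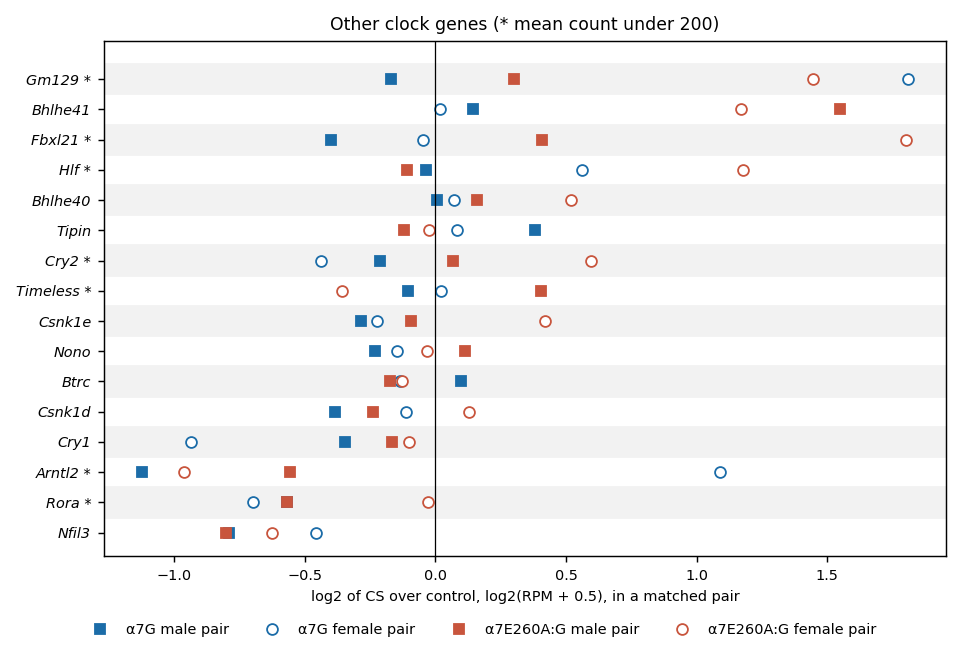
log2 of CS over control (x axis, log2 of RPM with 0.5 added) for the 16 other clock genes in each of the 4 matched pairs. An asterisk marks genes with a mean count under 200. Nfil3, Rora and Cry1 lie below 0 in all 4 pairs, and Bhlhe40 and Bhlhe41 above 0 in all 4.

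Between the genotypes 0 of these 9 were called in edgeR, and 3 (Bhlhe40, Bhlhe41 and Btrc) had an unadjusted p under 0.05 (background 11.9%). Bhlhe41 was higher in α7E260A:G by 0.75 ± 0.18 (log2, SE; adjusted p = 0.138 in edgeR) and Bhlhe40, its homolog DEC1, by 0.50 ± 0.13 (adjusted p = 0.175). DESeq2 called both, among 5.93% of transcripts, and so did edgeR with an offset for CDS length, among 6.63%. Among 10 genes that are rhythmic in many tissues, Tspan4 and Coq10b were higher and Pfkfb3 lower in 4 of 4 CS pairs, and among 8 genes known to respond to glucocorticoids, which also set peripheral clocks, 0 were higher and 0 were lower in all 4. After length correction Coq10b was higher in 3 of 4, and of the glucocorticoid genes Sgk1 was higher and Zbtb16 lower in all 4. Of all genes 11.2% were higher and 11.5% lower in every pair (9.64% and 11.7% after length correction).

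The transcripts most like a member were sought over the 8 libraries among those with a mean count of at least 200 (Pearson's r of log2 RPM, other members left out). For Nr1d1 they were Cyr61 (r = 0.98), Ppap2b (0.94), Nab2 (0.94), Stard3 (0.93) and Dpep1 (0.93), and the most opposite was Osgin2 (-0.82). For Arntl they were Entpd1 (r = 0.96), Ahcyl2 (0.95), Slc9a9 (0.93), Slc25a12 (0.93) and Amica1 (0.93), and the most opposite was Unc119 (-0.97). The 8 points share exposure, length dependence and cell makeup, and of the 10 transcripts named by the rule for each gene, 1 was shared with the list after length correction for Nr1d1 and 1 for Arntl.

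The libraries held 8020726 to 10944100 CDS counts, and a floor of 3 counts is 0.27 to 0.37 RPM. Chrna7 itself had 0 counts in 7 libraries and 4 in the other. Markers of the labelled epithelium were present, but not evenly: the summed RPM of 8 markers of alveolar type 2 cells was 20096 to 30654 in the 4 α7G libraries and 4760 to 14823 in the 4 α7E260A:G libraries, while 8 markers of alveolar macrophages summed to 8524 to 15630 and 21733 to 36862. With CS, the type 2 sum was higher in 2 of 4 pairs, and 4 other sums were higher in 4 of 4, each with overlapping ranges. They were those of alveolar macrophages (8524 to 35492 RPM in controls and 11728 to 36862 after CS, 2 of 8 markers higher in every pair), fibroblasts (1128 to 3221 and 2465 to 3482, 2 of 7), general epithelium (1002 to 1557 and 1281 to 1886, 2 of 5) and alveolar type 1 cells (158 to 455 and 175 to 485, 2 of 6). After length correction, 1 of the 8 macrophage and 4 of the 7 fibroblast markers were higher in every pair. So were 3 of the 5 of general epithelium and 0 of the 6 of type 1 cells. Chi3l3 made up most of the macrophage sum, with 6245 of 8524 RPM in the α7G male control. It was higher in 4 of 4 pairs, and in 3 after length correction. The part of cell makeup in the clock gene values was not tested. In these bulk samples fewer cells of a type and less RNA per cell cannot be told apart.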

How the data were processed

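The authors depleted CD45+ cells from lavaged distal lung, prepared TruSeq stranded mRNA libraries, aligned reads with STAR to the mm9 (NCBIM37) build and counted reads on coding sequence with htseq-count and GENCODE M1. Raw counts of 22756 genes per library were deposited, with no normalization, and versions are not given in the sources used here. All genes were found in the GENCODE M1 annotation, from which CDS lengths were taken.

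Groups came from the sample titles. Those of the female α7G libraries read alpha7 without G, and these were placed by the genotype label and the design. The members and all gene lists were chosen with earlier results of these data known, and 2 genes of the list of other clock genes are not reported here. The genes named are the members, the fixed lists and, for Nr1d1 and Arntl, the 5 transcripts with the highest and the 5 with the lowest Pearson's r. RPM used each library's total count. Log2 ratios of members needed no pseudocount, since no count was 0, and 0.5 RPM was added for other genes. edgeR 4.0.16 (limma 3.58.1, R 4.3.3; glmQLFit, glmQLFTest, TMM, Benjamini-Hochberg at 0.05) was fitted to the 8 libraries as 4 groups, with sex added for the sex contrast, on the 7196 transcripts with a mean count of at least 200 that are not immunoglobulin, histocompatibility, Gm or ribosome subunit genes. SE were derived from the log2 difference and F. For length correction, the deviation of a library from the mean was fitted on log2 CDS length by lowess (span 0.667) and subtracted. Scripts were tested on simulated data. DESeq2 1.42.0, other scalings, filters, offsets, sex as a block and leaving out libraries were alternatives. Python 3.11.15, numpy 2.4.6, pandas 2.3.3, scipy 1.17.1 and matplotlib 3.10.9 were used. With 2 libraries per group, p-values of the fit without sex measure the spread between libraries of unlike sex. Those of the sex contrast, and of runs with sex as a block, measure how the sex difference varied among the 4 groups. No 2 libraries were duplicates (largest r between log2 counts 0.986).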

Additional observations from a re-analysis of the deposited data

Results flagged for a closer look

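Per2 was lower after CS in both α7G pairs and higher in both α7E260A:G pairs, with mean log2 responses that differed by 1.15 (α7E260A:G minus α7G), and this difference was not tested because the members were chosen by their CS response. After length correction the Per2 log2 ratio was 0.56 and -0.39 in the α7G pairs and 0.61 and 0.82 in the α7E260A:G pairs (male, female), so that the split by sign was lost while both α7E260A:G pairs stayed above both α7G pairs. Among the other clock genes, Cry2 (difference 0.66) and Fbxl21 (1.33) likewise were lower in both α7G pairs and higher in both α7E260A:G pairs, Tipin was higher in α7G and lower in α7E260A:G (difference -0.31), and Hlf was higher with CS in both female pairs and lower in both male pairs (difference 0.94, female minus male). The 2 against 2 split by genotype was lost after length correction for Cry2, Fbxl21 and Tipin, and the count of Fbxl21 was under the floor of 3 in the female α7E260A:G control. In edgeR the difference between the genotypes' responses had an adjusted p of 0.997 for Tipin, and of 1.00 with filterByExpr for Cry2 and Fbxl21, so it passed for none of the 3, and that of Hlf between the sexes was not tested.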

How the results depend on the processing

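The count of members called was 0 for genotype and 0 for sex in every alternative run: scaling by library size, DESeq2, filterByExpr, all genes with a count, the CDS length offset, either exposure alone for genotype, and each library left out (0 to 0). With sex as a replicate block the genotype count was also 0, alone, with the length offset, and with filterByExpr as well, a combination chosen after seeing the data. Calls over all transcripts differed widely between these runs. For genotype they were 6 of 7196 in the main fit, 427 with DESeq2, 477 with the length offset and 673 with block and offset. With filterByExpr they were 13 of 14140, and 707 with block and offset added. For sex they were 2 of 7196 in the main fit and 42 with DESeq2. Male and female libraries of different groups deviated together in some group pairs and not in others (r from -0.13 to 0.84), so the numbers were not taken to pair the samples, and the block moved calls between the genotypes from 6 to 40 transcripts. For the other clock genes, calls for CS were 2 with DESeq2 in place of 0, and calls for genotype were 2 with DESeq2, 2 with the length offset, 2 with the block and offset, and 2 with filterByExpr added. Leaving out a library gave 0 to 0 in both. Members higher with CS in every pair were 3, with 3 under TMM scaling and 2 after length correction, and leaving out a pair gave 3 to 4. Members lower in every pair were 2, and 2 to 4 with a pair left out, the 4 being reached without the α7E260A:G female pair. The change of the difference between the arms was 1.52, and 1.39 to 1.69 without a pair. These counts over pairs and this change describe the CS response that chose the members, and do not test it. Length correction moved 5 of the 20 member ratios by more than the spread of their pairs. With 1 male and 1 female library per group, sex and replicate spread cannot be told apart, and the exact hour of collection of each library is not given in the sources used here. Npas2, at 17 to 88 counts, is the member whose depth limits it most.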
